A study of Mus musculus with 192 samples.

Results

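Accessible DNA was examined at 10 genes of the TEAD, YAP and TAZ transcription module: the factors Tead1, Tead2, Tead3 and Tead4, the co-activators Yap1 and Wwtr1 (the gene of TAZ), and the target genes Ctgf, Cyr61, Ankrd1 and Amotl2. They are 10 of the 22350 protein-coding genes of the GENCODE vM1 models of the mouse genome mm9. The locus of each gene was its body and 50 kb on either side, and windows of the deposited list that overlapped it were split into windows within 1 kb of a transcript start and windows away from every start.

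The study used Pi-ATAC, protein-indexed single-cell ATAC-seq, in which the transposase Tn5 inserts sequencing adapters into open chromatin of fixed cells and antibody stains are recorded for each cell as it is sorted. Splenocytes were mixed with 4T1, an established line of mouse mammary carcinoma, the mixture was transposed in 1 reaction, and antibodies to EpCAM and CD45 guided the sort of single cells into wells. The spleen donor was an MMTV-PyMT mouse, a transgenic in which a mammary promoter drives the polyoma middle T antigen, that was free of tumour when it was taken. By title the groups were 96 EpCAM-sorted 4T1 cells and 96 CD45-sorted splenocytes, and 1 of the 192 samples had a source name that differed from its title.

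The deposited list held 50000 windows of 500 bp with positions and peak names only. The peak names carry the word all, which was read as both groups together, whereas the methods of the study speak of summits from the aggregated cells of a condition. Which cells entered the list was therefore not settled. It was treated as 1 pooled sample, so the cells behind a window could not be told apart, no spread between samples was available and no test was run. Windows lay at own starts of 5 of 5 epithelial marker genes (Epcam, Cdh1, Krt8, Krt18 and Cldn4) and of 5 of 6 leukocyte marker genes (Coro1a, Laptm5, Vav1, Cd79a and Cd3e, but not Ptprc, the gene of CD45). The same held for 2 of 5 stromal marker genes and for 0 of 3 endothelial marker genes, while 48.1% of all 22350 protein-coding genes had such a window. These lists are small, and the stromal share of 40% lay near that of all genes.

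In the Hippo pathway a kinase cascade of MST and LATS kinases phosphorylates YAP and TAZ and holds them in the cytoplasm. When the cascade is quiet, YAP and TAZ enter the nucleus, where they lack a DNA-binding domain of their own and act through TEAD factors bound to DNA. The TEAD word searched here was GGAATG, on both strands, so that a site on the other strand reads as CATTCC. The module is known for growth control and for its activity in epithelial and mesenchymal cells and in many carcinomas, and its classic targets include secreted matricellular proteins and feedback inhibitors of YAP.

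The sequences before the starts of the targets show how the TEAD word sat in the accessible windows. All are mm9, 5′ to 3′ on the strand of the gene, with the TEAD word in capitals, and each runs up to the base before a transcript start. They are Ctgf at chr10:24315078-24315247 (plus strand, 170 bases), Cyr61 at chr3:145312950-145313149 (minus strand), Ankrd1 at chr19:36194335-36194534 (minus strand) and Amotl2 at chr9:102620559-102620758 (plus strand, before an internal start).
Ctgf: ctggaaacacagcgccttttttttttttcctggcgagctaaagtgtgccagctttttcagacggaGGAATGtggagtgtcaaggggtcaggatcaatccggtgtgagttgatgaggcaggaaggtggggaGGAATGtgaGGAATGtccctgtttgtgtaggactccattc
Cyr61: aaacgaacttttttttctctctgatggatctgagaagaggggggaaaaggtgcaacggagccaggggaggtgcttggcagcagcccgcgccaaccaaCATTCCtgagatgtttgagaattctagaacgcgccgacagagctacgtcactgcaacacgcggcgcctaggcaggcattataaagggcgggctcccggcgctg
Ankrd1: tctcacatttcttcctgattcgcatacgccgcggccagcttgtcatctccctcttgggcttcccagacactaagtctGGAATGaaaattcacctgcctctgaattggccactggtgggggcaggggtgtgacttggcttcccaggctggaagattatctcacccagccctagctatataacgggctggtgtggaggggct
Amotl2: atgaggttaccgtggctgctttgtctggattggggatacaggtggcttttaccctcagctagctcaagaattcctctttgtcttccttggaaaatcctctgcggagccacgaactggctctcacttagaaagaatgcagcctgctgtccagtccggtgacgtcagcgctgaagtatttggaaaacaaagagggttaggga

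The Ctgf stretch held 3 TEAD words, the Cyr61 stretch 1 and the Ankrd1 stretch 1, while the Amotl2 stretch held 0. Words of the other windows of these genes are given with each gene below.

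Word clusters also lay in own-start windows of Tead3, Tead4 and Wwtr1, and these were picked for display after the words had been counted. The Tead3 stretch, chr17:28487654-28487668, and the Tead4 stretch, chr6:128250475-128250501, lie in untranslated exon sequence, and the Wwtr1 stretch, chr3:57380484-57380565, lies upstream of the gene. All 3 genes are on the minus strand, and the sequences are written on the strand of the gene.
Tead3: CATTCCgtaCATTCC
Tead4: CATTCCagcgccCATTCCgtgCATTCC
Wwtr1: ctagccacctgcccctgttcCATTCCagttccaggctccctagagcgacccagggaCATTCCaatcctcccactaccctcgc

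In Ctgf, Tead3 and Tead4 a pair of TEAD words stood in the same direction with 3 bases between them. This arrangement, searched on both strands, was present in 30 of the 50000 deposited windows, 0.0600%, and in 9 of the 17929 windows at a start, 0.0502%. Of those 9 windows, 3 belonged to the 10 genes and 6 lay at starts of other genes: Igf2bp1, Pelo, Cdc123, Pkp4 with Ccdc148, Snx8 and Pnpla2. Among spacings of 0 to 6 bases, that of 3 bases was the most frequent in the list, the others being present in 7 to 13 windows each. The spacing was chosen after the sequences were seen and the counts are a description.

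The 10 loci together spanned 1565 kb and held 113 windows, none shared by neighbouring loci. Of these, 22 lay at a start of the gene itself, 13 at a start of a neighbouring gene and 78 away from starts. A locus held a median of 12 windows, with a range from 3 at Tead2 to 20 at Amotl2, where the median over all protein-coding genes was 4 and the quartiles were 1 and 8. Per 100 kb the median was 6.42 against 3.01 over all genes, and 9 of 10 genes lay above the latter value. The pooled density was 7.22 windows per 100 kb of locus, against 1.89 over the genome as a whole, which includes long stretches without genes.

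**Figure D1:**
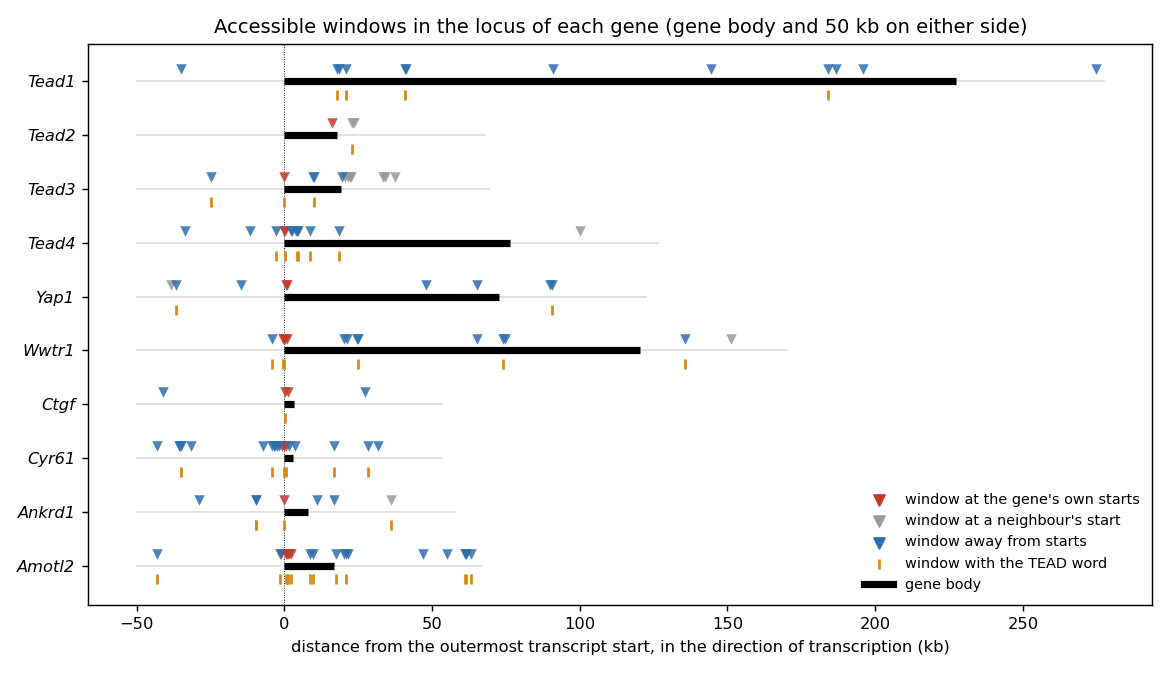
Windows of the 10 loci by distance in kb from the outermost transcript start, with the gene body as a black bar and 1 triangle for each window, coloured by its place. Orange ticks mark windows with the TEAD word. Tead1 had no window at its starts, and windows were crowded around the starts of Tead4, Cyr61 and Amotl2.

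A window lay at an own transcript start in 9 of the 10 genes, while 48.1% of all protein-coding genes had such a window. Tead1 was the exception. The share over all genes was not matched for expression, which was not measured here, or for annotated starts. More starts give more places for an own window, and members had from 1 start, at Cyr61 and Ankrd1, to 13 at Amotl2. By role, the 4 targets held 50 windows at 11.6 per 100 kb, the 4 TEAD factors 40 windows at 5.40 per 100 kb, and the 2 co-activators 23 windows at 5.85 per 100 kb. The order of the targets above the other roles rested on Cyr61 and Amotl2, with 18.4 and 17.1 windows per 100 kb, since Ankrd1 stood at 6.49 and Ctgf at 3.87.

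**Figure D2:**
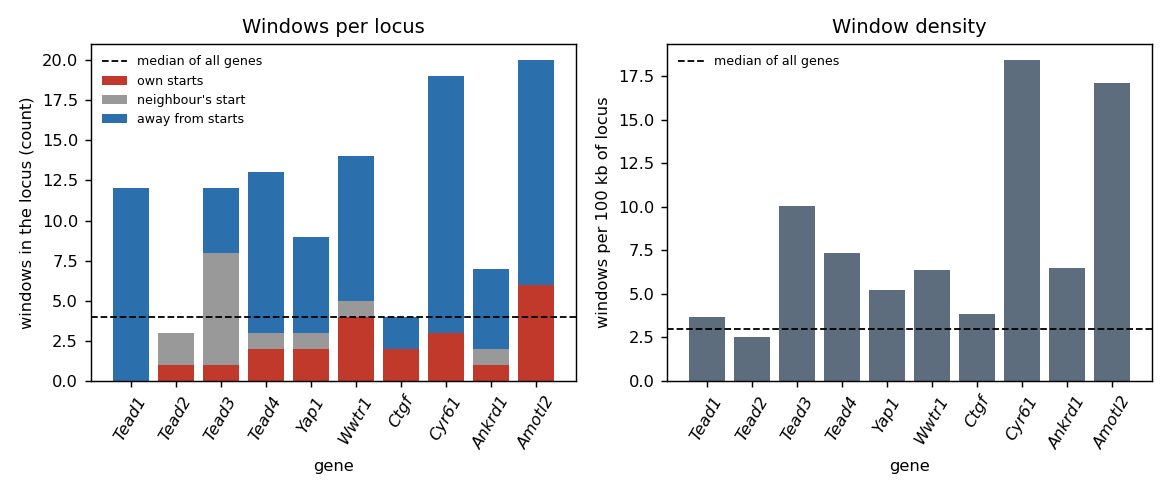
Number of windows in the locus of each gene, stacked by place (left), and windows per 100 kb of locus (right), with the median of all 22350 protein-coding genes as a dashed line. Counts ran from 3 at Tead2 to 20 at Amotl2, and densities from 2.54 to 18.4 per 100 kb.

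Tead1, a TEAD factor with a gene of 227 kb (chr7:119822832-120050319, plus strand), had 12 windows, and all of them lay away from starts. They comprised 10 windows in its introns and 1 on either flank, and the nearest summit was 5339 bases from any of the 11 annotated starts. Around the outermost start no window was listed between 35.0 kb upstream and 17.7 kb downstream. Peak names carry consecutive numbers, and 3 numbered calls were missing from the list over those 52.7 kb, so calls were made there that the list does not hold. Over the whole locus 11 calls were listed of 42 numbered between the nearest listed calls outside it, 26.2%, against 38.0% over the genome. A missing call has no position, so some of the 42 may lie beyond the flanks, and such locus shares may be too low. The TEAD word was present in 4 of the 12 windows and the AP-1 word in 5.

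Tead2, the TEAD factor with the fewest windows, is a gene of 17.9 kb (chr7:52471123-52489005, plus strand) with 12 annotated starts. Its 1 own window, chr7:52486881-52487380, had its summit in an intron, 387 bases before an internal start and 16.0 kb from the outermost one. The other 2 windows of the locus lay at a start of the neighbour Cd37, a tetraspanin gene of leukocytes, and 1 of these held the only TEAD word of the locus. Listed calls, counted as at Tead1, were 3 of 17, 17.6%, the lowest share of the 10 genes. Around the outermost start 7 calls were missing, over the 69.4 kb between the windows on either side of it.

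Tead3 (chr17:28468616-28487750, minus strand) had 12 windows, of which 7 lay at starts of Fance, a gene of DNA crosslink repair, and Rpl10a, a ribosomal protein gene. Its own window, chr17:28487643-28488142, had its summit 143 bases upstream of a start and held 3 TEAD words: the pair printed above and 1 more, 182 bases upstream of the outermost start. The 4 windows away from starts included 2 summits of 1 call in the gene, 9.94 and 9.61 kb from the outermost start. Both held the AP-1 word, and 1 held the TEAD word too.

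Tead4 (chr6:128174306-128250841, minus strand) had 13 windows, and 9 of these fell within 18.5 kb at its 5′ end. The 2 own windows were summits of 1 call on either side of the outermost start, 29 bases upstream and 0.319 kb downstream of it, and the downstream one held the 3 words printed above, between 340 and 361 bases into the gene. Of the 10 windows away from starts 7 were intronic, and 3 of these were summits of a single call, 3.81 to 4.73 kb into the gene. The TEAD word was present in 6 of the 13 windows. The 1 window at a start of a neighbour lay at Gm10010, and held none.

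The co-activators both had windows at their starts. Yap1, the gene of YAP (chr9:7931999-8004596, minus strand), had 9 windows. Its 2 own windows, chr9:8003351-8003850 and chr9:8003882-8004381, had their summits over exons, 0.995 and 0.464 kb downstream of the outermost start, and neither held a TEAD word. The word was present in 2 of the 6 windows away from starts, 1 of them 90.6 kb downstream of the outermost start and 1 of them 36.8 kb upstream, within an intron of the neighbour 9230110C19Rik.

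Wwtr1, the gene of TAZ (chr3:57259571-57379832, minus strand), had 14 windows, of which 4 lay at its own starts and 3 of those were summits of 1 call, from the first exon to upstream of the gene. The summit farthest upstream was 537 bases from a start and held 3 TEAD words, at 324, 677 and 713 bases upstream, and the latter 2 are in the stretch printed above. A further word lay 136 bases upstream. Of the 9 windows away from starts 7 were inside the gene, 20.2 to 74.8 kb from the outermost start, and 1 was over an exon. The 1 window at a start of a neighbour lay at Tm4sf4.

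Among the targets, Ctgf, which encodes a secreted matricellular protein, is a compact gene (chr10:24315248-24318489, plus strand) with 4 windows, which is the median of all genes. Its start window, chr10:24315078-24315577, had its summit 80 bases into the gene and held all 3 TEAD words of the locus, 105, 40 and 31 bases upstream of the start. The second own window lay in an intron, 1.28 kb from the outermost start. The remaining windows lay 41.1 kb upstream and 27.3 kb downstream and held no TEAD word. Chromosome 10 had 27.7% of its numbered calls in the list, below the 38.0% of the genome. At the Ctgf locus 4 of 14 calls were listed, 28.6%. This was counted as at Tead1 and may be too low for a direct comparison with the chromosome.

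Cyr61, which encodes a further member of the same matricellular family, is a gene of 3.02 kb (chr3:145309935-145312949, minus strand) and had 19 windows, the highest density of the 10 genes. Within 10.8 kb around the gene stood 11 windows, running from 3.73 kb downstream of the start to 7.04 kb upstream of it. Of the 16 windows away from starts, 15 lay outside the gene, and 5 of these stood 31.7 to 43.2 kb upstream of the start. The 3 own windows held 3 TEAD words, 1 of them 103 bases upstream and the others 714 and 901 bases downstream. Listed calls, counted as at Tead1, were 15 of 24, 62.5%, the highest share among the 10 genes.

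Ankrd1, which encodes an ankyrin repeat protein of heart muscle that also responds to YAP, had 7 windows (gene chr19:36186455-36194334, minus strand), and 0 of their summits lay inside the gene. Its own window, chr19:36194300-36194799, had its summit 216 bases upstream of the start and held TEAD words 123 and 210 bases upstream, the first of which is in the sequence above. The windows 9.42 and 9.72 kb upstream were summits of 1 call, and the 1 TEAD word they held lay in their overlap. A window at a start of the neighbour Rpp30, 36.2 kb downstream, held 2 words.

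Amotl2, which encodes an angiomotin-like junction protein that binds and restrains YAP, had the most windows, 20, of which 6 lay at its own starts and 10 were summits of calls with several summits (gene chr9:102619002-102635748, plus strand, 13 annotated starts). It also held the most TEAD words, with 20 distinct words in 13 of its 20 windows. At its starts 4 words lay 761, 861, 1067 and 2193 bases downstream of the outermost start. The other dense stretch lay downstream of the gene: 4 windows between 61.1 and 63.1 kb from the outermost start, 3 of which held the word.

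Away from starts 8 of 78 windows held 2 or more TEAD words, 10.3% against 5.44% of all windows away from starts. They lay at Amotl2, Tead4 and Tead1, and without Amotl2 there were 3 of 64. From 6 of the 8 windows, 200-base stretches are shown as examples of repeated words away from promoters. Ties were settled by distance to an own start, which left out 2 Amotl2 windows with 2 words each, chr9:102575720-102576219 and chr9:102680231-102680730. They are written on the plus strand of mm9, with the TEAD word in capitals. The first stretch, chr9:102681896-102682095, lies downstream of Amotl2 and holds 3 of the 4 words of its window. The second, chr6:128253462-128253661, lies upstream of Tead4, and the fourth, chr6:128246157-128246356, in a Tead4 intron. The third, chr9:102636430-102636629, lies just downstream of Amotl2, and the fifth, chr7:119840416-119840615, in a Tead1 intron. The sixth, chr9:102639708-102639907, lies 21.0 kb from the outermost start of Amotl2 and holds 1 of the 2 words of its window.
Amotl2 downstream: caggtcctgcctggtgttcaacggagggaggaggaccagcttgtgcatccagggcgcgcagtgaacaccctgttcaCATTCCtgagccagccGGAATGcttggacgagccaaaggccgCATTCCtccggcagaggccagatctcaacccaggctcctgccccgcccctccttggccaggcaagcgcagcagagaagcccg
Tead4 upstream: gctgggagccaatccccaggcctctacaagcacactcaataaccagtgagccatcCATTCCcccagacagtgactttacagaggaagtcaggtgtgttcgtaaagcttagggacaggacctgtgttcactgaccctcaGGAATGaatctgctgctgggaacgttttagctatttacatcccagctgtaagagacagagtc
Amotl2 nearer downstream: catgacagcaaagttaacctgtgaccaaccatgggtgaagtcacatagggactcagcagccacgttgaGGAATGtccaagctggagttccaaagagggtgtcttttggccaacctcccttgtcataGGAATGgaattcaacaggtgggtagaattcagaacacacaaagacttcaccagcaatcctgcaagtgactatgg
Tead4 intron: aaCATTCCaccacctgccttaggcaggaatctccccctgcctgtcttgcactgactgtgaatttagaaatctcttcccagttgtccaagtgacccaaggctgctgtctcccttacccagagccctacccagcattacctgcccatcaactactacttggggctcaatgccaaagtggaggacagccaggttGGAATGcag
Tead1 intron: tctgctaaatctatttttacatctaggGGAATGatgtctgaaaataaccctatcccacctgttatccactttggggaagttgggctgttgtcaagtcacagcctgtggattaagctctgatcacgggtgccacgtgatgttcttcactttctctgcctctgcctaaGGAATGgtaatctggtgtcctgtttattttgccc
Amotl2 farther downstream: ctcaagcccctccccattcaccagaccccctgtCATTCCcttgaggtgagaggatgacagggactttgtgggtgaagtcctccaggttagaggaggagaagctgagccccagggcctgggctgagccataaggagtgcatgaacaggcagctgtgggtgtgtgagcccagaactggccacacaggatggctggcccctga

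The windows behind these stretches held 4 words in the first case and 2 in each of the others. In the first the 3 words shown alternated in direction, and in the Tead1 intron both read GGAATG on the plus strand, the strand of the gene.

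Over all 113 windows the TEAD word was present in 46, or 40.7% (95% exact binomial interval 31.6 to 50.4%, which covers counting error only and takes windows as independent, although neighbouring summits overlap). Over all deposited windows the share was 25.9%. Among windows at a start the members held the word in 14 of 35, 40.0%, against 20.2% of all such windows, and the 22 own windows in 12 of 22, 54.5%, against 2 of 13 at starts of neighbours. Of all 22 own windows, with the word or without, 12 belonged to the targets, which were chosen as known targets of the module. Away from starts the share was 32 of 78, 41.0%, against 29.1% of all windows away from starts. Without Amotl2 it was 33 of 93, 35.5%, in all, 8 of 16 at own starts and 23 of 64, 35.9%, away from starts.

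Of the 9 genes with an own window, 7 held the TEAD word in 1 or more of them, all but Tead2 and Yap1, while 29.7% of the 10759 protein-coding genes with an own window did. The same 7 genes had 2 or more words in a single own window, where 4.20% of those genes did. The 7 include all 4 targets, which were chosen as known targets of the module. A TEAD word at their starts is not independent of that choice. The others of the 7 were Tead3, Tead4 and Wwtr1. Members had more own windows than most genes, a median of 2, which gives more sequence to search. Over windows in place of genes, 7 of the 22 own windows held 2 or more words, and 2.57% of all windows at a start did. A pair of TEAD words within 50 bases of each other was found in 4 of the 22, at Tead3, Tead4, Wwtr1 and Ctgf, and in 0.831% of all windows at a start.

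**Figure D3:**
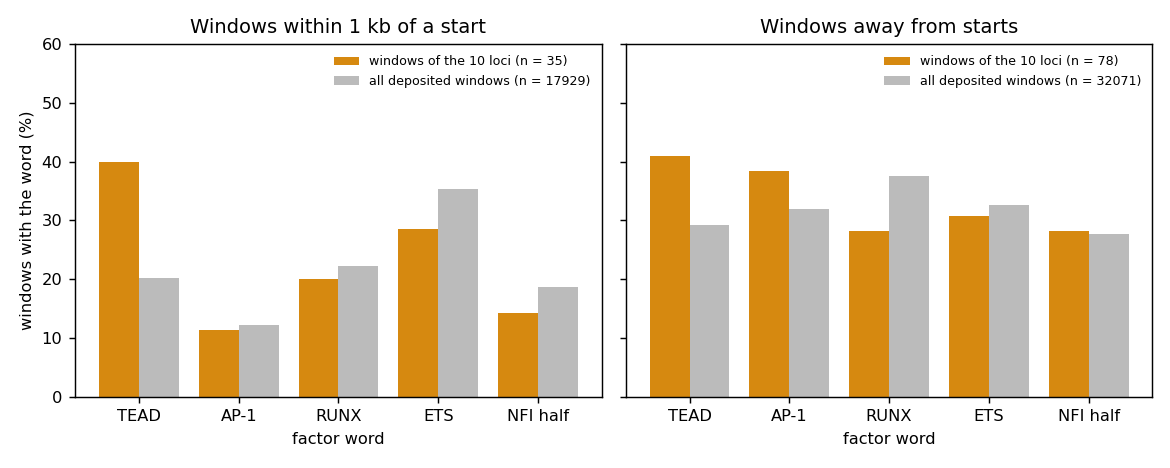
Share of windows, in percent, that hold each factor word on either strand, for windows of the 10 loci (orange) and all deposited windows (grey), at starts (left) and away from starts (right). The TEAD word stood at 40.0 and 41.0% in the loci against 20.2 and 29.1% in all windows, while the other words lay nearer to their grey bars.

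With all 10 loci counted, the other factor words differed less from all windows. Away from starts and without Amotl2, the TEAD word stood at 35.9% against 29.1%. The AP-1 word there stood at 37.5% against 31.9%, a similar gap. The AP-1 word TGANTCA, which is common in open chromatin away from promoters, was present in 30 of 78 member windows away from starts, 38.5%, against 31.9%, and in 4 of 35 at a start, 11.4%, against 12.2%. The RUNX word TGTGGT was rarer in the loci, in 25.7% of windows against 32.1%, and away from starts in 28.2% against 37.6%. The ETS word GGAAGT stood at 30.1% against 33.6%, and the NFI half-site TTGGCA at 23.9% against 24.4%. All words were searched on both strands. The ETS and TEAD words share their first letters, GGAA, but 1 site cannot be both. TEAD and AP-1 words were found together in 15 windows, 13.3% against 7.59%, but within 50 bases of each other in 3 windows only, 2.65% against 2.44%. Over all 113 windows the TEAD word alone was also more frequent, at 40.7% against 25.9%. So was the AP-1 word, at 30.1% against 24.8%. More windows then hold both without any link between the words, and pairing was not tested.

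The TEAD words of the member windows lay a median of 107 bases from the summit, against 120 bases over all windows, and 33 of 69 were within 100 bases of it, 47.8% against 42.2%. The share of windows with the TEAD word was 48.0% at the targets, 35.0% at the TEAD factors and 34.8% at the co-activators, and away from starts alone it was 40.5, 42.3 and 40.0%. Of the 24 target windows with the word, 13 lay at Amotl2, which had 20 of the 50 target windows. Windows from calls with several summits made up 34 of the 113, 30.1% against 18.2% of the list, and 21 of these 34, 61.8%, held the TEAD word against 24.3% of all windows from such calls. Of the 34, 10 were at Amotl2. The other 79 windows held it in 31.6%, close to the 26.3% of all windows with a single summit.

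Windows lay at starts of most other genes of the pathway as well. Of the 21 genes in a list of Hippo pathway components, 20 had an own-start window, or 95.2%. All genes, not matched for annotated starts or expression, stood at 48.1%. The 20 were 11 of 11 genes of the kinase cascade, 7 of 7 upstream and junction genes, and 2 of 3 LIM proteins that bind LATS kinases. Wtip was the exception. The list had a median of 7 windows in the locus, from 1 at Sav1 to 23 at Amotl1, a relative of Amotl2. Wwc1, the gene of KIBRA upstream of LATS, and its relative Wwc2 held 20 each. Wwc2 was also the gene with the nearest start for a further TEAD pair spaced by 3 bases, in 2 overlapping windows.

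Of the vestigial-like genes, which encode cofactors that bind TEAD in competition with YAP, Vgll4 held 25 windows, 7 of them at its own starts, and Vgll3 held 3, while Vgll1 with 2 windows and Vgll2 with 1 had none at a start. Of 18 further genes known as YAP targets, 12 had an own-start window, 66.7% against 48.1% of all genes. Those without were Igfbp3, Foxf2, Fjx1, Ccdc80, Tgfb2 and Rbms3, and at Igfbp3 and Foxf2 no window was listed in the whole locus. The most windows stood at Asap1, an Arf GTPase-activating protein gene, with 40, and at Crim1 with 28. The lists of Hippo genes and further targets share Lats2 and Ptpn14.

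**Figure D4:**
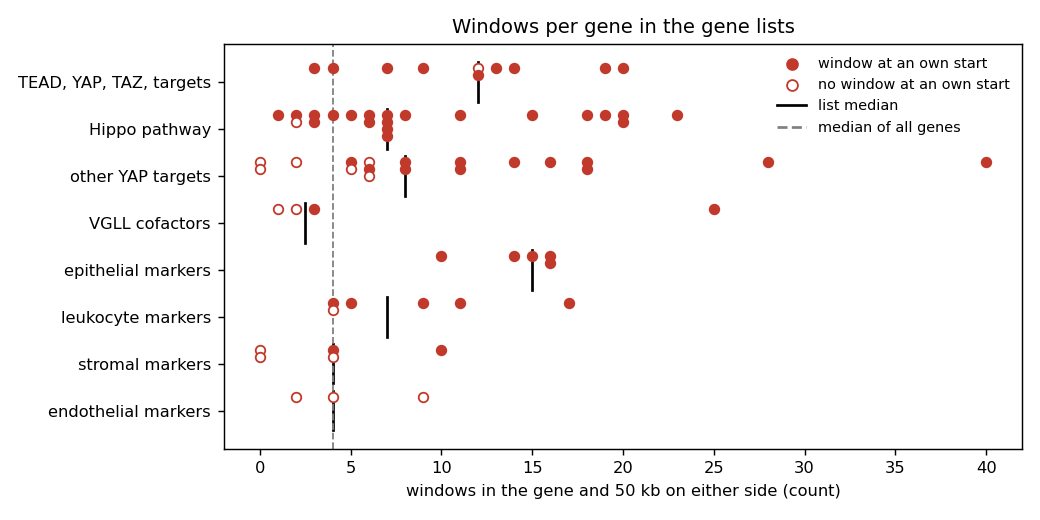
Windows per locus for each gene of the lists, with filled points for genes with a window at an own start, a black line at the list median and a dashed line at the median of all genes, 4. Medians were 12 for the 10 genes, 7 for the Hippo list, 8 for further YAP targets and 15 for epithelial markers.

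The TEAD word was present in 33.0% of the 194 windows of the Hippo list and in 32.7% of the 202 windows of further YAP targets, where the members had 40.7% and all windows 25.9%. The share was 38.7% of the 31 windows of the vestigial-like genes. At loci of marker genes it was 25.9% of 58 windows for epithelial, 28.0% of 50 for leukocyte, 33.3% of 18 for stromal and 40.0% of 15 for endothelial markers, so some of these small sets lay close to the members. Away from starts the epithelial and leukocyte marker loci stood at 32.5% and 38.1%, the endothelial ones at 33.3% of 9 windows and the stromal ones at 41.7% of 12, against 41.0% at the members.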

How the data were processed

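Per the methods of the study, the authors used Bowtie2 2.1.0 to align reads to mm9 and Picard 1.79 to drop duplicates, aggregated cells and called summits with MACS2 (version not given in the sources used here). The deposited windows are 500 bp around the summits with the lowest q-values, as positions without a score, and their read depth is unknown here.

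Windows were joined to GENCODE vM1 genes by an overlap of 1 bp or more, with Python 3.11.15 and pandas 2.3.3. Starts were those of protein-coding and long non-coding genes, and the genome sequence matched mm9 in chromosome lengths. Words were searched exactly. The 10 genes, the lists and the words were chosen with earlier results of these data known, so counts stand beside the same count over all genes or windows, without a test. Of the Hippo, vestigial-like and further target lists, genes without an own-start window and the 5 with the most windows were named. Counting was tested on simulated data. Other flanks, distances, overlap rules, summit classes and words were tried.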

Additional observations from a re-analysis of the deposited data

How the results depend on the processing

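Of 54 results under alternative settings, 44 stayed within 1.5 times the count or, for the TEAD share, within its interval. This rule compares a value with its main value and not with all windows, so it does not show whether a gap to all windows held. Windows with a single summit counted as unchanged at 31.6%, at the lower edge of the interval, where 26.3% of all such windows held the word. Some of the 44 were fixed in advance. The start distance does not enter the number of windows in the loci or the TEAD share. Joining overlapping windows cannot alter which genes have an own-start window. With calls of several summits only, the loci held 34 windows, 20 of them away from starts, 5 members, 5 Hippo genes and 3 further YAP targets had an own-start window (13.0% of all genes did), and the TEAD share was 61.8%, against 24.3% of all such windows. With 10 kb flanks 50 windows lay away from starts. The TEAD share was 18.6% for GGAATGT (7.78% of all windows), 10.6% for TGGAATG (8.25%) and 23.9% in the central 200 bases (11.7%). With 100 kb flanks it was 34.9%. Leaving out Amotl2 was added after the data were seen. No paired analysis was possible because the list gives no values per sample. The list holds the strongest calls only, so a missing window does not show closed chromatin, and read depth limits it in a way that could not be measured here.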
